A study of Mus musculus with 5 samples.

Results

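Schwann cells make the myelin of peripheral nerves, and 9 of their genes were followed here in whole spinal cord, where nerve roots that stay on the dissected tissue can carry them. The members, Pmp22, Prx, Pmp2, Egr2, Drp2, Cldn19, Ncmap, Gldn and Cdh19, are a list of genes drawn up with earlier results of these data known, and were looked up by symbol among the 55471 gene identifiers of the count table. All 9 were found, and all 9 had enough counts to be tested. Messenger RNA had been sequenced from 2 libraries of Lhx1os knockout (KO, Lhx1os -/-) mice and 3 libraries of wild type (WT) mice, all resting C57BL/6J males aged 3 months. Lhx1os is transcribed into a long non-coding RNA. The KO was made with Cas9 and 1 guide to the second exon, where a synthetic polyadenylation site and polymerase-destabilising MAZ repeats were inserted to stop transcription, and it is present in every cell, Schwann cells included. No label ties a library to a number of animals or says how much root was left on the cord.

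Myelin inside the cord is laid down by oligodendrocytes, and myelin of the roots by Schwann cells, which are derived from the neural crest. A Schwann cell that meets an axon large enough to be myelinated switches on the transcription factor Egr2, which with Sox10 drives the genes of peripheral myelin. Since the cord itself lacks Schwann cells apart from the root entry and exit zones, their transcripts in a cord library can come from root tissue. In a bulk library fewer Schwann cells and less RNA per Schwann cell cannot be told apart.

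The libraries held 15973063 to 19437533 counts and did not all hold the same tissue. WT replicate 2 stood apart for sensory ganglion genes. The pain-fibre sodium channel gene Scn10a had 306 counts there, against 1 or 2 in each other library, and all 9 genes of the sensory ganglion list were highest in that library. Hox genes of the caudal cord were highest in KO replicate 2, with 117 counts of Hoxd10 against 0 to 7 in the others, and WT replicate 3 came next. Hoxa11 and Hoxd11 each had 30 counts in KO replicate 2 and 0 in every other library, where 0 counts allow up to 0.153 to 0.185 CPM, the count scaled to library size, by counting error alone. These Hox genes and Scn10a were picked out once their values were known. The targeted gene Lhx1os had 13 and 11 counts in the KO libraries, against 56, 66 and 51 in the WT libraries.

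The members as a group varied more between WT libraries than between the genotypes. The 9 genes together took 0.0333% and 0.0417% of the counts in the KO libraries, against 0.0311%, 0.0412% and 0.0484% in the WT libraries. Their score, the mean log2 CPM of the members minus the WT mean, was −0.43 and −0.13 in KO, against −0.47, 0.16 and 0.32 in WT. WT replicate 1 was thus the lowest of the 5 libraries and WT replicate 3 the highest, with both KO libraries between them. The KO mean lay 0.28 below the WT mean, at −0.28 ± 0.217 (SD, n = 2) against an SD of 0.418 between the WT libraries (n = 3), which spanned 0.79. Of the 9 members, 7 had their lowest level in WT replicate 1 and 6 their highest in WT replicate 3.

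**Figure D1:**
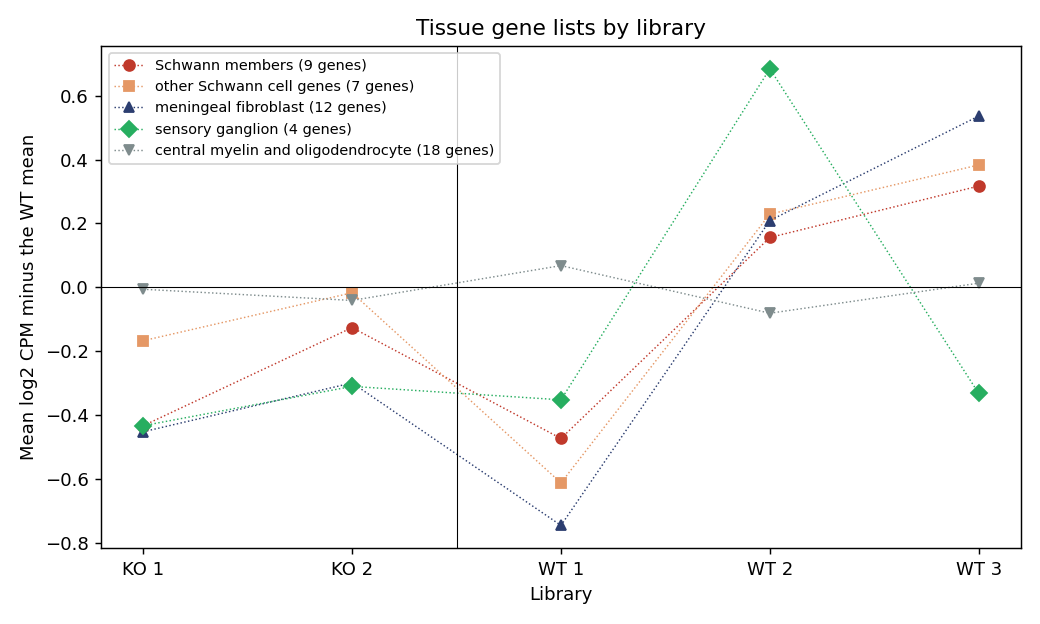
Score of each gene list (mean log2 CPM of its tested genes minus the WT mean, vertical axis) in each library (horizontal axis, KO left of WT). The Schwann cell members are lowest in WT replicate 1 (−0.47) and highest in WT replicate 3 (0.32), as are the meningeal fibroblast genes, the central myelin genes stay between −0.08 and 0.07, and the sensory ganglion genes peak in WT replicate 2 (0.68).

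Meningeal fibroblast genes moved with the members. All 12 of that list were highest in WT replicate 3 and 9 were lowest in WT replicate 1, and their summed level was 325 and 353 CPM in KO, against 258, 510 and 622 CPM in WT. Decorin (Dcn), a matrix proteoglycan of fibroblasts, had 51.8 and 67.9 CPM in KO libraries, against 42.2, 90.7 and 110 CPM in WT libraries. Some caudal Hox genes were also high in WT replicate 3, but not all. Hoxd10 had 0.431 CPM there against 7.31 CPM in KO replicate 2, and Hoxa11 and Hoxd11 had 0 CPM there. Hoxc10 had 4.78 and 33.3 CPM in KO libraries, against 6.01, 5.57 and 17.7 CPM in WT libraries, and Hoxa10 had 1.78 and 14.3 CPM in KO, against 3.03, 1.38 and 9.60 CPM in WT. Hoxd9 had 5.46 and 12.6 CPM in KO, against 6.07, 2.55 and 10.1 CPM in WT. Hoxc10, Hoxa10 and Hoxd9 were picked out once their values were known. WT replicate 3 and KO replicate 2, the 2 libraries highest in these 3 genes, were also the 2 highest in Prx, Drp2, Pmp22 and Cldn19, though not in the other 5 members. The part of fibroblasts and of cord level in the member levels was not tested. Genes of central myelin varied far less, with scores of −0.01 and −0.04 in KO against 0.07, −0.08 and 0.01 in WT. Myelin basic protein (Mbp), which both myelins share, lay at 16500 and 16200 CPM in KO, against 18000, 15400 and 17000 CPM in WT.

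The members differed widely in abundance. On a scale of CPM per kilobase of annotated exon, over all 5 libraries, Pmp22 led at 93.0 ± 15.2 and Drp2 followed at 10.4 ± 1.49 (SD, n = 5). Prx at 6.58 ± 2.34 and Cdh19 at 6.40 ± 1.11 did not differ beyond their spread. Ncmap stood at 3.20 ± 0.967 and Cldn19 at 1.46 ± 0.653. Gldn at 0.710 ± 0.129, Egr2 at 0.493 ± 0.279 and Pmp2 at 0.390 ± 0.161 were the lowest, each overlapping its neighbour in the order.

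Prx and Drp2 belong to 1 complex. Periaxin (Prx) is a scaffold on the Schwann cell membrane that binds the dystrophin-related protein Drp2 and links it to dystroglycan, forming the appositions that leave cytoplasmic channels on the outside of the sheath. Prx (ENSMUSG00000053198, chromosome 7, 27499324 to 27520214 in GRCm38, plus strand) had 27.7 and 45.1 CPM in the KO libraries, against 18.7, 42 and 50.1 CPM in the WT libraries. The groups overlapped, and the lowest and highest values were both WT. Drp2 (chromosome X, 134404551 to 134456573, plus strand) had 77.7 and 97.2 CPM in KO, against 74.1, 94.5 and 103 CPM in WT. It kept the order of Prx over the 5 libraries but spanned 1.39-fold where Prx spanned 2.67-fold. Whether the reads of Prx and Drp2 all came from Schwann cells was not tested. Their log2 fold changes were −0.03 (SE 0.33; adjusted p = 0.992) for Prx and −0.05 (SE 0.13; adjusted p = 0.944) for Drp2 in edgeR's quasi-likelihood test. Without WT replicate 2 and without WT replicate 3 the value for Prx turned to 0.08 and 0.25, and without KO replicate 1 to 0.29, and that for Drp2 to 0.05 without WT replicate 3 and 0.10 without KO replicate 1.

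Cldn19 encodes a claudin of the tight junctions that Schwann cells form between their own myelin layers. It lies on chromosome 4 from 119255414 to 119262438 on the plus strand. Its levels were 3.80 and 7.56 CPM in KO libraries, against 3.03, 6.90 and 9.79 CPM in WT libraries, a 3.23-fold range in which the groups overlapped. The log2 fold change of −0.21 (SE 0.41; adjusted p = 0.919) was within its error and became 0.18 without WT replicate 3 and 0.20 without KO replicate 1.

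Ncmap, the gene of a small membrane protein of non-compact myelin, lies on the same chromosome from 135369576 to 135398227 on the minus strand. It stood at 5.03 and 7.06 CPM in KO, against 5.0, 9.65 and 8.93 CPM in WT. KO replicate 1 and WT replicate 1 were alike and low. Its log2 fold change was −0.38 (SE 0.27; adjusted p = 0.763) and did not pass. It was negative in all 15 alternative fits, but its size rested on single libraries, at −0.16 without KO replicate 1, −0.20 without WT replicate 2, −0.62 without WT replicate 1 and −0.65 without KO replicate 2.

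Egr2, the zinc finger factor also called Krox20, had few reads. Its counts were 16 and 21 in the KO libraries, against 12, 51 and 45 in the WT libraries, or 0.981 and 1.31 CPM against 0.714, 2.61 and 2.77 CPM. WT replicate 1 was below both KO libraries and the other WT libraries well above them, so the 3.88-fold range was the widest of the 9 members and the groups overlapped. The log2 fold change was −0.83 (SE 0.51; adjusted p = 0.731). Egr2 is also an early response gene of neurons and is made by some macrophages, so its reads need not all be from Schwann cells. Border macrophage genes varied in the same direction: Cd163, a scavenger receptor gene, had 2.51 and 2.0 CPM in KO, against 2.02, 5.67 and 7.08 CPM in WT. Cd163 was picked out once its values were known. Other genes of the microglia and macrophage list did not all vary so: C1qa had 63.9 and 42.4 CPM in KO, against 52.5, 51.7 and 51.8 CPM in WT. The part of macrophages in the Egr2 level was not tested.

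Because Egr2 is known to drive genes of peripheral myelin, the bases just upstream of the other members' starts are shown where a sequence was matched. RefSeq promoter windows (GRCm38.p6) of 250 bases before and 50 after a start were matched for 6 of the 9 members, 15 windows in all; Pmp2, Drp2 and Cdh19 were not matched. The motif GTGGGNG, the core bound by the EGR family, was searched on both strands. It was present in 6 of the 15 windows, whereas 31.6% of all 32851 promoter windows hold it. The windows of a gene can overlap, and the 2 of Cldn19 hold the same site. Those 6 windows were 2 of Cldn19, 2 of the 5 of Egr2, 1 of the 2 of Ncmap and the single window of Prx, while none of the 4 windows of Pmp22 and not the single window of Gldn held it. The SOX-type motif ACAANG was in 2 of the 15 windows, 1 each of Cldn19 and Egr2, against 41.2% of all windows. The 2 motifs do not overlap in these windows. In the 250 upstream bases below, printed 5′ to 3′ on the gene's strand, capitals mark GTGGGNG or its reverse complement. For Cldn19, Ncmap and Pmp22 the window farthest upstream is the one printed. These are matches of letters, and nothing here measured binding.
Prx, chr7:27499074-27499323, plus strand: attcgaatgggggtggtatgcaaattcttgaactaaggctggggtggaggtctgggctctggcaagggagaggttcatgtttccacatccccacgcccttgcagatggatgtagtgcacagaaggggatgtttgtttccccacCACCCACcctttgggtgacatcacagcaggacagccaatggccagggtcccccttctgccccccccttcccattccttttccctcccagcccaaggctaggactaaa
Cldn19, chr4:119255191-119255440, plus strand: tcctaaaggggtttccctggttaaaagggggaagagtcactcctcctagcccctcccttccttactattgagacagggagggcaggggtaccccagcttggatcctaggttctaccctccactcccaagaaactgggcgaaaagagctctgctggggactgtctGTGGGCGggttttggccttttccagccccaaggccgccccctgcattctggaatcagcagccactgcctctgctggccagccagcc
Ncmap, chr4:135398228-135398477, minus strand: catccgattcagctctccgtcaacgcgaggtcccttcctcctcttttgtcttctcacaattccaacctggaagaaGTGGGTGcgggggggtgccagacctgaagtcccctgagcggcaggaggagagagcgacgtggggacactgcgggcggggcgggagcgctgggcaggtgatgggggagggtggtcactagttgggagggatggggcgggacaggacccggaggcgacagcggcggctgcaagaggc
Pmp22, chr11:63128732-63128981, plus strand: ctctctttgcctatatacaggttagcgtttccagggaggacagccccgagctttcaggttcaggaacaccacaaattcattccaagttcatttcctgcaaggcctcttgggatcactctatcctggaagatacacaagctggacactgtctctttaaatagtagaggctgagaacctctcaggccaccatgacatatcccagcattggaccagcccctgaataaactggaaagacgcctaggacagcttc
Gldn, chr9:54286236-54286485, plus strand: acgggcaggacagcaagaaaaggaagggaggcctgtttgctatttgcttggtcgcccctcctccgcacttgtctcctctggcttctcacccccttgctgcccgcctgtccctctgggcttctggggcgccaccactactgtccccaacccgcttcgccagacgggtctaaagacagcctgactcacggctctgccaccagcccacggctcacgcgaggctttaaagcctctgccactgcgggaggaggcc
In the bases printed, the motif occurred 1 time in each of Prx, Cldn19 and Ncmap, on the opposite strand in Prx and on the gene's own strand in the others. It occurred in neither Pmp22 nor Gldn.

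Pmp22, a tetraspan protein of compact myelin whose duplication causes an inherited neuropathy in humans, was the most abundant member. It lies on chromosome 11 from 63128982 to 63159547 on the plus strand. Its levels were 193 and 232 CPM in KO libraries, against 180, 218 and 271 CPM in WT libraries. The libraries ranked as they did for Prx but spanned 1.51-fold. Fibroblasts, endothelium and other cells outside the nerve also make Pmp22. The log2 fold change was −0.07 (SE 0.14; adjusted p = 0.926), and it was 0.09 without WT replicate 3 and 0.06 without KO replicate 1.

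Gldn encodes gliomedin, which Schwann cell microvilli secrete at the node of Ranvier, where it binds neurofascin and helps to gather sodium channels. It had 3.68 and 2.81 CPM in KO, against 2.56, 3.47 and 4.00 CPM in WT, from 43 to 68 counts a library. Here the KO libraries stood in the opposite order from Prx, Cldn19, Egr2 and Pmp22, with KO replicate 1 above KO replicate 2. The log2 fold change was −0.04 (SE 0.26; adjusted p = 0.981), and it was 0.10 without WT replicate 3 and 0.14 without KO replicate 2.

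Cdh19 and Pmp2 were the 2 members whose KO and WT levels did not overlap. Cdh19, a cadherin gene of Schwann cells and their precursors, lies on chromosome 1 from 110888326 to 110977584 on the minus strand. It had 22.5 and 22.4 CPM in the KO libraries, against 32.5, 31.3 and 28.2 CPM in the WT libraries. Both KO libraries were below all 3 WT libraries, with means of 22.5 ± 0.0482 CPM (SD, n = 2) and 30.7 ± 2.24 CPM (SD, n = 3). Its log2 fold change of −0.45 (SE 0.09; unadjusted p = 0.000596) did not pass over all 16052 genes (adjusted p = 0.217, edgeR quasi-likelihood test). It passed only when no filter on low counts was used (adjusted p = 0.032), and DESeq2 gave an adjusted p of 0.098. Leaving out 1 library at a time left the log2 fold change between −0.51 and −0.41. Cdh19 was highest in WT replicate 1, where 7 of the members were lowest. Whether the reads of Cdh19 all came from Schwann cells of the roots was not tested.

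Pmp2, the peripheral myelin P2 protein that binds fatty acids, was barely detected. It had 5 and 5 counts in the KO libraries, against 13, 12 and 12 counts in the WT libraries, or 0.307 and 0.313 CPM against 0.774, 0.613 and 0.739 CPM. The KO libraries were again below all WT libraries, and WT replicate 1 was again the highest. The log2 fold change was −1.17 (SE 0.47; unadjusted p = 0.0307; adjusted p = 0.641), which did not pass. The annotation places a second protein-coding gene, Gm37389, over 1224 of the 1408 exon bases of Pmp2 (86.9%) on the same strand, with 0 counts in these libraries. Reads in shared bases may have been assigned to neither gene, so the level of Pmp2 is uncertain.

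**Figure D2:**
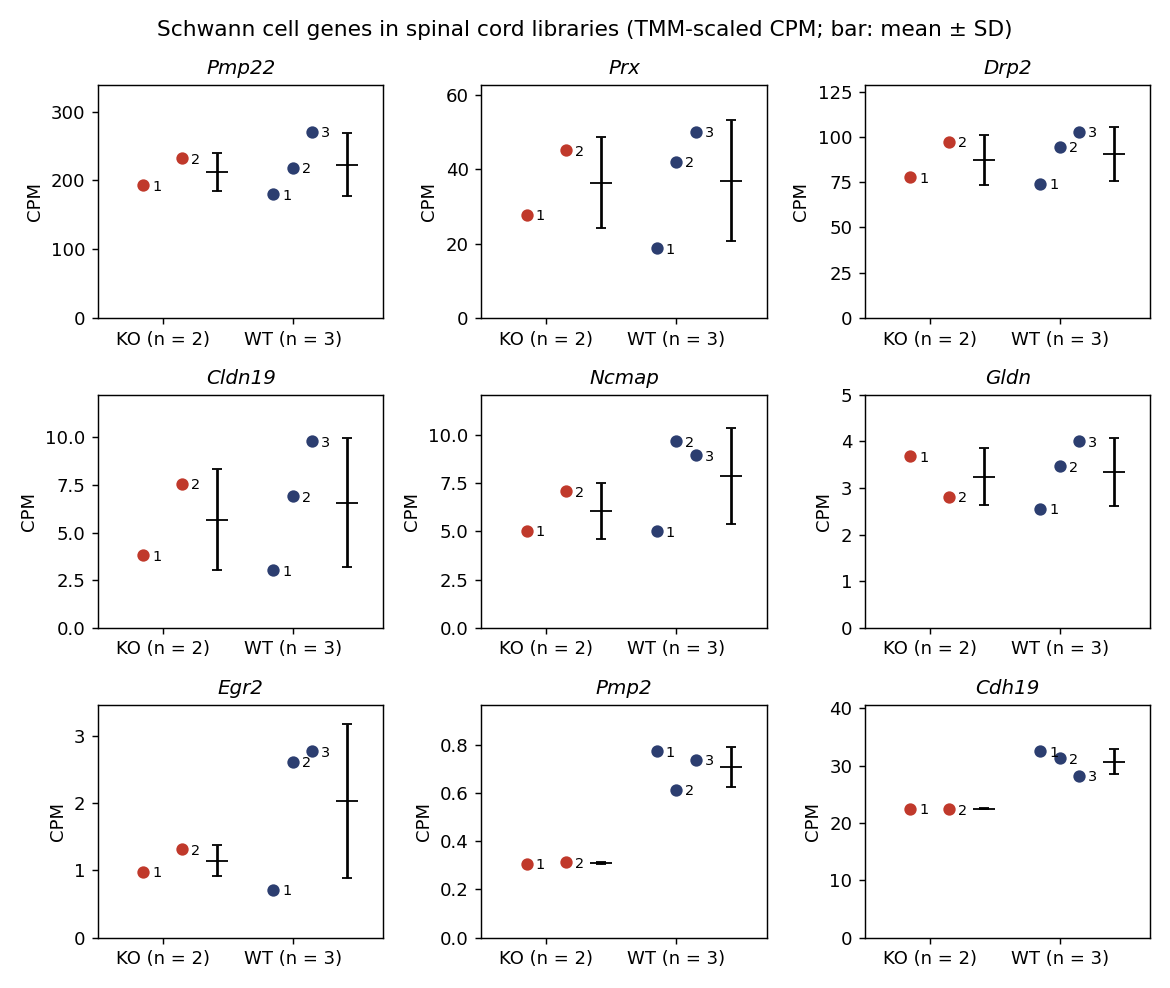
Level of each Schwann cell member in TMM-scaled CPM (vertical axes start at 0) in the KO and WT libraries, KO on the left. Points are libraries with their replicate number and bars are the mean ± SD. The groups overlap for 7 genes, with WT replicate 1 lowest in all 7, and do not overlap for Pmp2 and Cdh19.

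Set against Prx in the same library, the other members differed in how steady their proportion to it was. Cldn19 was the steadiest, with ratios to Prx of 0.137 and 0.168 in KO libraries, against 0.162, 0.164 and 0.195 in WT libraries, a 1.42-fold range although Cldn19 itself spanned 3.23-fold. The ratio for Ncmap spanned 1.7-fold, for Pmp22 1.86-fold, for Drp2 1.92-fold, for Egr2 2.13-fold and for Gldn 2.19-fold. Cdh19 had ratios of 0.814 and 0.498 in KO, against 1.74, 0.745 and 0.563 in WT, a 3.49-fold range that was wider than the 1.45-fold range of its own level. Pmp2, with its few counts, spanned 5.95-fold. Prx itself was lowest in WT replicate 1, and 6 of the 8 ratios were highest there, all but those of Cldn19 and Egr2. KO and WT ratios did not overlap for Egr2 and Pmp2, each lower in KO. For Egr2 they were 0.0355 and 0.0291 in KO libraries, against 0.0381, 0.0620 and 0.0553 in WT libraries. Over all other genes tested, 1.31% had ratios to Prx without overlap. Prx had both its lowest and its highest level in WT. Dividing by it spreads the WT ratios of genes that do not follow Prx, which favours overlap. That share is therefore no background for members that follow Prx, and by CPM alone 24.9% of all genes tested did not overlap. The ratios to Prx are a description and were not tested, since Prx is part of each of them. Prx was chosen as the divisor after its values were seen.

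**Figure D3:**
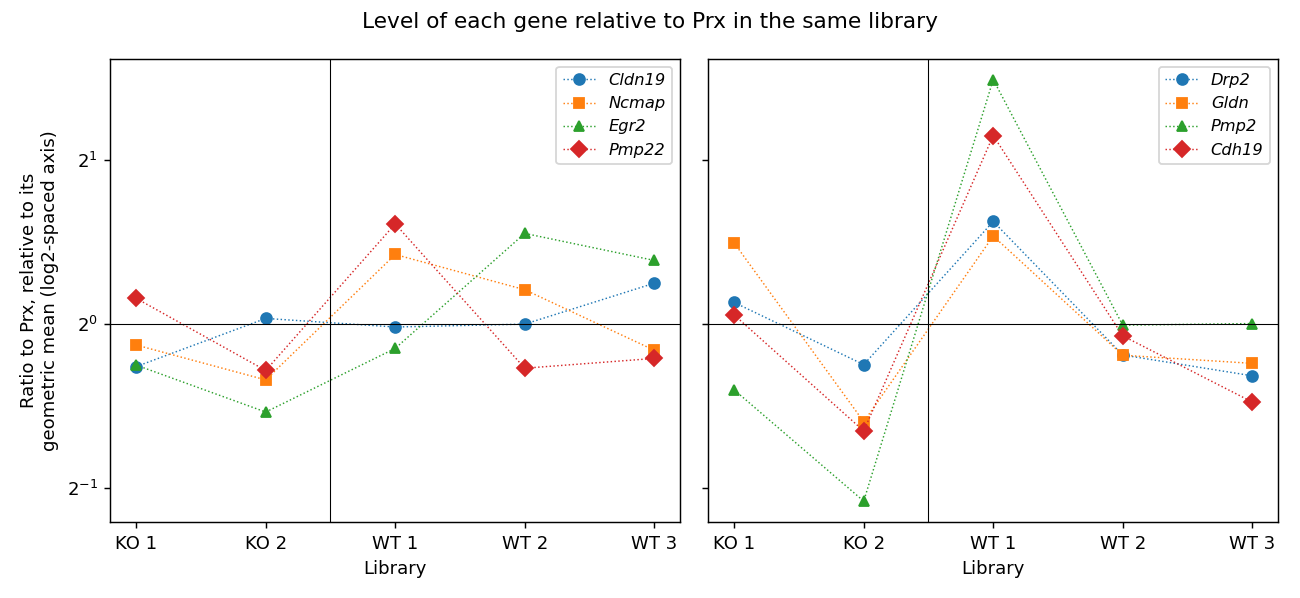
Ratio of each other member to Prx within a library, divided by the geometric mean of that ratio over the 5 libraries (log2-spaced axis), with KO libraries left of WT libraries. Cldn19 stays nearest to 1 over the libraries (1.42-fold range), and the ratios of Cdh19 (3.49-fold) and Pmp2 (5.95-fold) range most widely. WT replicate 1, where Prx is lowest, has the highest ratio for 6 of the 8 genes.

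In the comparison of the genotypes, 0 of the 9 members passed an adjusted p of 0.05, where 0.0187% of the 16052 genes tested (3 genes) did. Unadjusted p-values under 0.05 belonged to Cdh19 and Pmp2, both lower in KO, against 7.57% of all genes in either direction and 4.07% lower in KO. DESeq2 passed 0 members and 0.249% of all genes, and gave no adjusted p for Pmp2, Egr2, Cldn19, Ncmap and Gldn. All 9 members had a log2 fold change below 0, as 48.7% of all genes did, with a median of −0.21 and a range of −1.17 to −0.03 beside a median of 0.00 over all genes. Of these directions, 5 did not hold when single libraries were left out: without WT replicate 3, the library with the highest score of the members, 5 members were higher in KO and 4 lower, and the median was 0.05. Without KO replicate 1, 4 members were higher in KO and 5 lower, and the median was −0.16. Without KO replicate 2 the median was −0.45, without WT replicate 2 it was −0.17, without WT replicate 1 it was −0.41, without both WT replicate 2 and KO replicate 2 it was −0.44, and without both libraries highest in caudal Hox genes (WT replicate 3 and KO replicate 2) it was −0.40, each time with 0 members passing. Those 2 pairs were chosen after seeing the data. Cdh19, Pmp2, Egr2 and Ncmap were lower in KO each time. Groups did not overlap for 2 of the 9 members, both lower in KO, against 24.9% of all genes in either direction and 12% lower in KO.

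**Figure D4:**
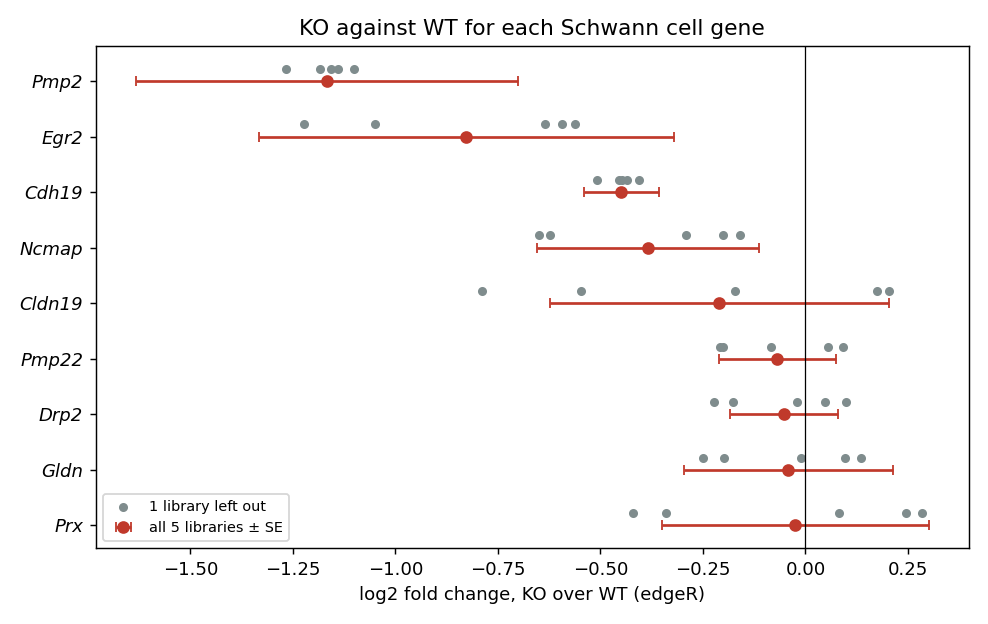
Log2 fold change of each Schwann cell member, KO over WT, from edgeR with all 5 libraries (red, ± SE) and with 1 library left out at a time (grey). Leaving out 1 library moves Prx, Gldn, Drp2, Pmp22 and Cldn19 across 0, while Cdh19 stays between −0.51 and −0.41.

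The other Schwann cell genes split by the kind of cell. Of 7 such genes 4 were lower and 3 higher in KO, 0 passed, and the median log2 fold change was −0.03. Scn7a, a sodium channel gene of non-myelinating Schwann cells, had 7.79 and 9.63 CPM in KO, against 7.56, 20.2 and 14.2 CPM in WT (log2 fold change −0.69, SE 0.32; adjusted p = 0.673). It peaked in WT replicate 2, the library with sensory ganglion transcripts, as did the neurotrophin receptor gene Ngfr at 12.1 CPM against 3.31 to 5.46 CPM in the other libraries. Ngfr was picked out once its values were known. The members did not peak in WT replicate 2, except for Ncmap.

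The ratio of a gene's highest to its lowest CPM over the 5 libraries had a median of 1.93 for the members (1.39 to 3.88) and of 1.29 for 10 genes of Schwann cell transcription and differentiation (1.13 to 1.83), so that the ranges of single genes overlapped. Of those 10 genes 8 were higher and 2 lower in KO (median 0.09) and 0 passed. Sox10, which both Schwann cells and oligodendrocytes need, stood at 129 and 139 CPM in KO, against 123, 123 and 122 CPM in WT (log2 fold change 0.13, SE 0.06; adjusted p = 0.666), and Zeb2 stood at 0.05 (SE 0.07). Jun, which drives the repair state of injured Schwann cells and is an early response gene in neurons, had 49.4 and 45.3 CPM in KO, against 33.1, 37.6 and 31.5 CPM in WT, without overlap (0.47, SE 0.09; adjusted p = 0.192).

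Of 8 genes of the signals between axons and Schwann cells, 7 were higher and 1 lower (median 0.06) and 0 passed. The axonal growth factor gene Nrg1 stood at 0.26 (SE 0.10; adjusted p = 0.626), and the most abundant, Adam22 and Bace1, at 0.05 (SE 0.06) and 0.02 (SE 0.06). Erbb2, part of the neuregulin receptor of Schwann cells and picked out once its values were known, was lowest in WT replicate 1 as most members were, with 4.11 and 4.38 CPM in KO, against 1.67, 3.98 and 4.37 CPM in WT, a 2.63-fold range. The 11 genes in the list of basal lamina receptors and the dystroglycan complex were lower in 9 cases and higher in 2 (median −0.11). None passed in edgeR and 1, the integrin gene Itgb1, had an unadjusted p under 0.05 (−0.18, SE 0.08; adjusted p = 0.657). Over all genes tested 7.57% had an unadjusted p under 0.05 in that test. The dystrophin relative Utrn stood at −0.06 (SE 0.08). The 9 genes in the list of the node and paranode were higher in 7 cases and lower in 2 (median 0.05) and 0 passed. Nfasc, the gene of the neurofascin that gliomedin binds, stood at 0.12 (SE 0.07). Ank3, the anchor of sodium channels, stood at 0.02 (SE 0.08) and the channel gene Scn8a at 0.16 (SE 0.09; adjusted p = 0.715). In the list of central myelin and oligodendrocyte genes 12 of 18 were lower and 6 higher (median −0.03) and 0 passed. Opalin, an oligodendrocyte membrane protein gene, stood at 0.40 (SE 0.09; adjusted p = 0.267).

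Genes outside the lists were searched for a profile like that of the members, by the root mean square difference between log2 CPM centred over the 5 libraries and the mean profile of the members. Among 14755 genes at a mean of 1 CPM or more, the nearest were Iqgap2 (0.0356 on the log2 scale), Ppp1r1a (0.0383), Megf6 (0.0439), Crybg1 (0.0526) and Bmp7 (0.0726). Ppp1r1a, the gene of a protein phosphatase inhibitor, had 13.2 and 15.2 CPM in KO, against 12.4, 19 and 20.7 CPM in WT. Over 5 libraries these likenesses are a description of the samples and carry no test. The closest member to the mean profile was Ncmap (0.122), and Pmp2 (0.468) and Egr2 (0.409) were the farthest from it, with Cdh19 at 0.347.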

How the data were processed

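The authors deposited unnormalized read counts for each gene and library in a single table. Per the labels' protocols, libraries were made from spinal cord RNA with a stranded kit that selects polyadenylated RNA. Per the submitters' processing notes, the tools were STAR 2.5.2b, HTSeq, cutadapt and Trimmomatic and the build was GRCm38; the release of the annotation and whether counting used strand are not given in those sources. Groups came from the sample titles. Nothing states that libraries came from separate animals, so p-values may not measure the spread between animals. No pair of libraries was a copy (chi-square per degree of freedom 4.23 to 8.25).

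Symbols, coordinates and exon lengths came from GENCODE M21 (GRCm38), which matched 55230 of 55471 identifiers; the others held 0.00196% of the counts. Drgx was matched through another name. KO was compared with WT with edgeR 4.0.16 (R 4.3.3): filterByExpr (minimum count 10, minimum total 15), TMM factors of 0.982 to 1.01, the quasi-likelihood F test without covariates, and Benjamini-Hochberg adjustment over 16052 genes at 0.05. CPM are scaled by the TMM factors; scores use log2 CPM with a prior count of 2. The fit was tested on simulated counts. The members and the 11 other gene lists were chosen with earlier results of these data known, so the lists are described by counts and medians without a test. Beside the members, the rule named from each list any passing gene, or else the most abundant pair and the gene of smallest p, and the 5 genes nearest to the members' profile; a few of the genes so selected are left out. Alternatives were other size factors, other filters, robust dispersion, DESeq2 1.42.0, limma-voom (limma 3.58.1), the replicate number as a block and single libraries left out.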

Additional observations from a re-analysis of the deposited data

How the results depend on the processing

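Over all genes, the 3 calls became 6 with DESeq2 size factors, 96 without a low-count filter, 12 with robust dispersion, 40 with DESeq2, 1 with limma-voom and 25 with the replicate block; with 1 library left out they ranged between 0 and 58, and without WT replicate 2 and KO replicate 2 together there were 9, and without WT replicate 3 and KO replicate 2 together 27, both added after seeing the data. Members called stayed at 0 except without a low-count filter, where 1 (Cdh19) passed. Their median log2 fold change ran from −0.45 to 0.05. With 1 or 2 libraries left out, values turned positive for Pmp22 (−0.227 to 0.092), Prx (−0.42 to 0.29), Drp2 (−0.22 to 0.10), Cldn19 (−0.79 to 0.20) and Gldn (−0.25 to 0.275). Under the replicate block these were 0.097, 0.307, 0.054, 0.213 and 0.103 in the same order, with a median of 0.054 over the members, and limma-voom gave 0.045 for Prx. The cause was not tested. The block rests on a shared number only: deviations of same-numbered libraries correlated at 0.0579 and 0.00203, and 1 residual degree of freedom is left. Pmp2 has no value at the filter of 1 CPM. Where 1 library of a group was left, it was assumed to vary like the other group. Low counts limit Pmp2, Egr2 and Gldn most.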

Other observations

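Macrophages of the borders of the nervous system were followed by Mrc1, Cd163 and Lyve1 within the list of microglia and macrophage genes. These 3 genes were picked out once their values were known. All 3 were lowest in KO libraries or WT replicate 1 and higher in WT replicates 2 and 3: Lyve1 had 2.02 and 2.63 CPM in KO, against 2.26, 5.47 and 4.62 CPM in WT, and Mrc1 had 7.11 and 6.00 CPM in KO, against 4.40, 11.6 and 10.1 CPM in WT. None of the 9 genes of that list passed in edgeR over all genes. In that test 3 had an unadjusted p under 0.05 (Tmem119, Cd163 and Lyve1), each lower in KO. Over all genes tested 7.57% had one in either direction and 4.07% lower in KO. Csf1r of the same list spanned 1.22-fold, at 117 and 108 CPM in KO, against 113, 111 and 132 CPM in WT. Tmem119 had 21 and 18.8 CPM in KO, against 24.2, 24.1 and 26.2 CPM in WT. C1qa had a log2 fold change of 0.03 (SE 0.14).

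Skeletal muscle genes marked another library. Of 9, 8 were highest in KO replicate 1, where Myh4, a fast myosin heavy chain gene, reached 4.54 CPM against 0.563 CPM in KO replicate 2 and 0.952, 0.460 and 0.0616 CPM in WT (log2 fold change 2.36, SE 0.82; adjusted p = 0.587). Acta1 stood at 0.80 (SE 0.39) and Actn3 at 0.60 (SE 0.30). The summed level of the list was 18.9 and 6.5 CPM in KO, against 7.5, 7.1 and 4.0 CPM in WT. KO replicate 1 was low in Schwann cell genes (score −0.43). Among the sensory ganglion genes tested, Drgx (−0.13, SE 0.19) and Pou4f1 (−0.26, SE 0.25) did not pass. In the meningeal list 12 of 12 were lower in KO with 0 passing, Mgp having the smallest p (−0.45, SE 0.13; adjusted p = 0.487) and Col1a2 standing at −0.36 (SE 0.22). Hoxc8 stood at 0.45 (SE 0.17; adjusted p = 0.624) and Hoxb5 at −0.01 (SE 0.18).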
